A study of Mus musculus with 8 samples.

Results

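Of 36 interferon-stimulated genes chosen by name, 32 were measured in the skin of Adam10 knockout and wild-type mice, among 19935 genes in all. A gene was taken where a probe set of the array carries that gene's symbol and no other. Isg15, Gbp2 and Igtp lie only in probe sets that name several genes, and the annotation used does not list Ifi44, so these 4 were not analysed here. RNA was measured on Affymetrix Mouse Gene 1.0 arrays, 1 array per sample, in 4 samples of genotype Adam10 wildtype (titled WT) and 4 of genotype Adam10 knockout (titled cKO, which usually stands for a conditional knockout). The samples are described as mouse skin and as primary skin cells. The titles carry a P with the numbers 57 to 60 in wild type and 67, 68, 69 and 55 in knockout arrays 1 to 4, with no statement of what the numbers count. Neither the strain, the deleted exons, the cells that lost the gene nor the promoter of a Cre driver is stated, and no treatment of either group is named. The labels do not say that each sample came from a separate animal, so the p-values measure the spread between these samples.

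Interferons are secreted proteins that alert tissue to viruses. Type I interferons bind the receptor chains IFNAR1 and IFNAR2, whose kinases JAK1 and TYK2 activate STAT2. With IRF9 it takes part in a complex that binds a DNA element called ISRE and switches on a broad set of antiviral genes, while interferon gamma acts on another element, GAS. In skin, keratinocytes and immune cells both make and answer interferons, and a raised interferon signature is known from lupus and psoriasis.

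The interferon-stimulated genes did not move together in the knockout skin. Irf7, the transcription factor that amplifies type I interferon production, rose 2.69-fold, and Ifi35, a cytoplasmic protein induced by interferon, fell to a level 33.4% lower. The other 30 measured members did not pass the test, among them the sensors Ifih1 and Ddx58, the effectors Ifit1, Rsad2 and Mx1, and Irf9 and Stat2, which bind the ISRE together. The genes that encode interferons did not pass either. Of 91 other genes of the pathway, 6 rose (the receptor chain Ifnar1, the kinase Jak2, the factor Irf5, the feedback inhibitor Socs3, the membrane protein Ifitm3 and the ATPase Tor3a) and 2 fell (the exonuclease Isg20 and the lysosomal reductase Ifi30). These counts too lie near the shares over all genes, 6.41% higher and 2.34% lower.

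In limma (lmFit and eBayes, Benjamini-Hochberg adjustment over all 19935 genes, threshold 0.05) 1 of 32 members was higher and 1 was lower in the knockout. Over all genes, as above, 6.41% were called higher and 2.34% lower, 8.75% together, so both counts lie near the background of this comparison. Values are log2 of the deposited intensity, and each difference is knockout minus wild type on that scale. The median difference was -0.08 over the members and 0.0027 over all genes. Centring each array on its median turned the members' median to 0.03 and moved that of all genes to 0.10. The sign of the members' median thus depends on the scaling, and no direction of the group as a whole is given. The members' median stayed below that of all genes there, after quantile normalization (-0.03 against 0.01) and after cyclic loess (-0.04 against -0.0020). The sets are not matched for brightness. Of the members 10 lay above 0 and 22 below, where 50.4% of all genes lay above. The difference varied with brightness. The 10080 genes above the array median on at least 4 arrays had a median difference of 0.11, and the 8 members among them -0.09. The part of brightness in the members' counts was not tested. At an unadjusted p under 0.05, 2 members were higher and 5 lower, beside 16.3% and 8.80% of all genes. The groups of 4 did not overlap for 4 members, Irf7 and Eif2ak2 above and Ifi35 and Oasl1 below, where 18.1% of all genes did not overlap, 12.2% with the knockout above and 5.86% with it below.

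The 95% intervals of the fit show how large a change could have been missed. They lay within 1 on the log2 scale, a 2-fold change either way, for 30 of 32 members, the exceptions being Irf7 and Rtp4, and for 94.2% of all genes. They lay within 0.5 for 17 members. The interval's half-width had a median of 0.33 over the members and ran from 0.20 to 0.71. Many members gave little signal. Only 8 of 32 exceeded the median of all genes on at least 4 arrays, against 50.6% of all genes. Ifit1, Ifit3, Mx1, Mx2 and Herc6 lay below the 25th percentile of every array, where intensities respond poorly to RNA amount, so for these the intervals cover the measured values only. That limit holds in part for Ifit2 and Xaf1, which lay below it on 7 of 8 arrays. It holds in part too for Gbp3 (6 arrays), Rtp4 (5) and Irgm1 (4).

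**Figure D1:**
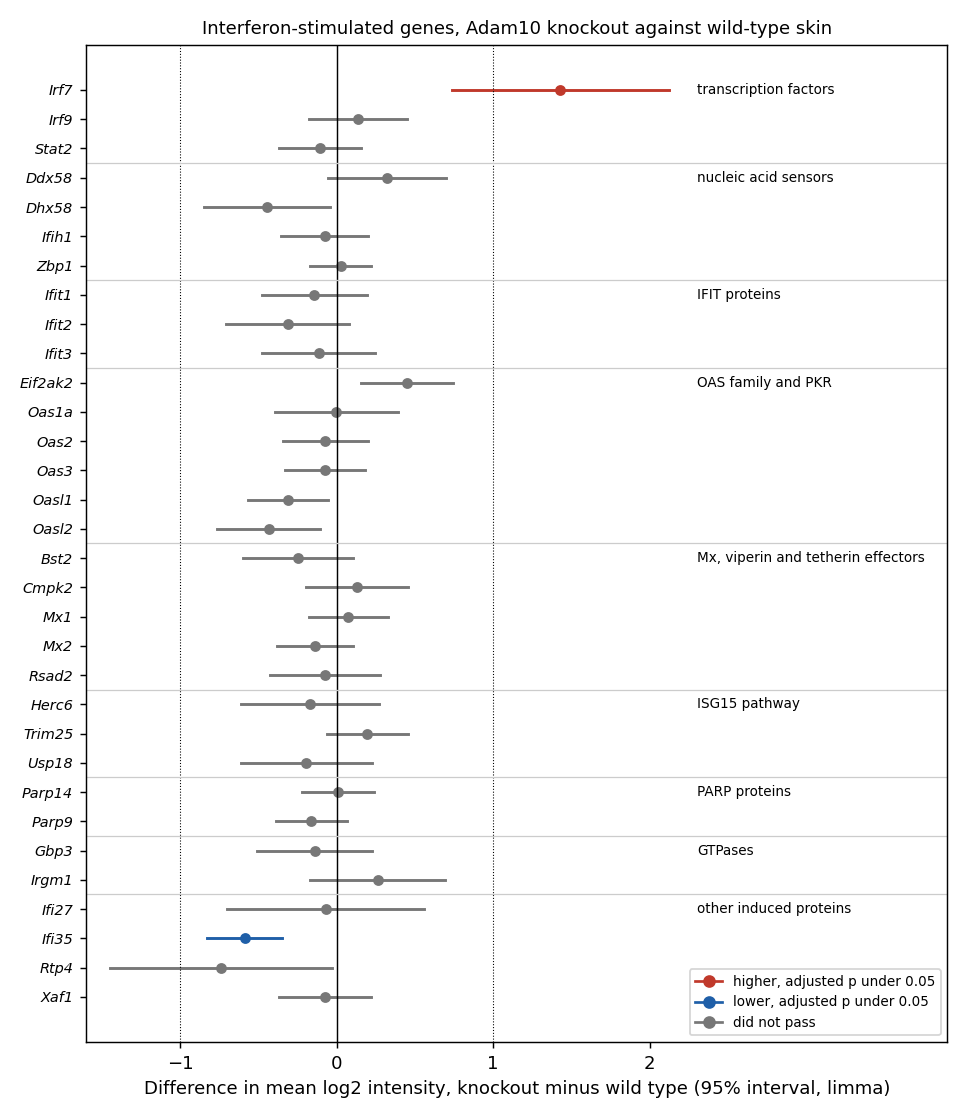
Difference in mean log2 intensity between 4 knockout and 4 wild-type arrays for the 32 measured interferon-stimulated genes, grouped by role, with 95% intervals from limma as lines. Irf7 (1.43) and Ifi35 (-0.59) are coloured as having passed the test, and the dotted lines mark a 2-fold change, which the intervals of Irf7 and Rtp4 cross.

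Facts of the whole series bear on these values. Adam10 itself changed by -0.36 (SE 0.11, limma adjusted p = 0.064), with all 4 knockout values below all 4 wild-type values. Across all genes 1277 were called higher and 467 lower, and the share of higher calls was 73.2%, while quantile normalization made it 63.0%, cyclic loess 56.9% and median centring 89.6%. Keratinocyte markers such as Krt5 and Krt14 were present on every array, with summed intensities of 18842 to 24120 in wild type and 23196 to 24453 in knockout for 8 markers. Wild-type array 4 stood apart with a skeletal muscle sum of 6560 intensity units for 10 markers, against 209, 243 and 1012 on wild-type arrays 1 to 3 and 165 to 221 in knockouts. The sum of 6 fibroblast markers was 803, 761, 2001 and 6795 on wild-type arrays 1 to 4 and 1016 to 1098 in knockouts, so wild-type array 3 lay apart too, to a lesser degree. Eif2s3y, of the Y chromosome, was low on wild-type array 1 and knockout arrays 1 and 4, between 1.99 and 2.38, and lay between 6.68 and 6.84 on the other 5. In these bulk samples, fewer cells of a type and less RNA per cell cannot be told apart.

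The promoters of the members that changed, and of the 4 other members with the smallest p whose promoter holds ISRE letters, are shown so that the letters can be set beside the values. RefSeq promoters of build GRCm38.p6 (250 bases before to 50 after the start) were given for 22 of the 32 measured members. The ISRE was searched as GAAA, any 2 bases and GAAA, and the GAS element as TTC, any 3 bases and GAA, on both strands, with overlapping matches kept. The ISRE letters were found in 15 of 29 promoters of the named members (51.7%) and in 3.44% of 32851 promoters of all genes, and the GAS letters in 20.7% and 8.30%. The lines give the 250 bases before the start, or 30 bases around a match that lies after it, 5′ to 3′ on the gene's strand, with ISRE letters on either strand in capitals.
Irf7, chr7:141266425-141266674, minus strand: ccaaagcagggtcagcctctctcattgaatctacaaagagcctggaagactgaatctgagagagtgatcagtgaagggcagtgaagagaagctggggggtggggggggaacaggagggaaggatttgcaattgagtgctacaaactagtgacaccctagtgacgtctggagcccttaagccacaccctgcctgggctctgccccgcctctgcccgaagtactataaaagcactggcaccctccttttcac
Ifi35, chr11:101448162-101448411, plus strand: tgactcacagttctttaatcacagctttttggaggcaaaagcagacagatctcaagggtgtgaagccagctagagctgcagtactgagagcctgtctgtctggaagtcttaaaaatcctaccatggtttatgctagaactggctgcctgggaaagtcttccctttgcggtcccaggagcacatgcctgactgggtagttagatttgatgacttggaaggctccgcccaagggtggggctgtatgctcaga
Eif2ak2, chr17:78882535-78882564, minus strand: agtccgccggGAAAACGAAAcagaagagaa
Ddx58, chr4:40239804-40239833, minus strand: cctgaggcagTTTCGATTTCctatggccag
Bst2, chr8:71537473-71537722, minus strand: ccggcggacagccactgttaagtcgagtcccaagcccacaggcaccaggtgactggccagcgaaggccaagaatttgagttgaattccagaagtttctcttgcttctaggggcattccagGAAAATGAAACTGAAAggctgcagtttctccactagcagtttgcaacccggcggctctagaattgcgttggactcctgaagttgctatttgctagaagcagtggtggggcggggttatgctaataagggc
Irgm1, chr11:48871421-48871670, minus strand: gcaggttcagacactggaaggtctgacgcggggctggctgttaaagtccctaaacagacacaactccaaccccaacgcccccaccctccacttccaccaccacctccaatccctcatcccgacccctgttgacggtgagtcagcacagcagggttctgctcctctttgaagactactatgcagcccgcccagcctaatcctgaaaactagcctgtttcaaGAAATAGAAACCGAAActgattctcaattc

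Neither member that passed the test holds the ISRE letters in its 300-base promoter. Irf7 holds no GAS letters there, and Ifi35 holds one such match, TTCACAGAA, that begins 7 bases after the start. Bst2 holds a pair of overlapping ISRE matches 130 and 124 bases before its start, the first of which overlaps a GAS match that begins at 136. Irgm1 holds a like pair 30 and 24 bases before the start. Of the 22 measured members with a promoter, the 12 that hold the ISRE letters had a median difference of -0.07, from -0.24 to 0.45, and 0 of them passed. The 10 without had a median of -0.12, from -0.59 to 1.43, and 2 passed. Over all genes 8.75% passed, and with so few members the counts of these sets cannot be told apart from that share. A match is a description of letters, and its absence says nothing of the factor's binding.

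Of the 3 transcription factors among the members, Irf7, Irf9 and Stat2, Irf7 passed the test. Its log2 intensity was 5.53, 4.92, 5.31 and 4.83 on wild-type arrays 1 to 4 and 6.74, 7.42, 6.46 and 5.69 on knockout arrays 1 to 4. The groups did not overlap, but knockout array 4 lay only just above the highest wild-type array, and the knockouts spread more widely. The wild-type mean was 5.15 ± 0.33 and the knockout mean 6.58 ± 0.72 (SD, n = 4 each), so the knockout was higher by 1.43 (SE 0.31, limma adjusted p = 0.022). The call was lost without wild-type array 2 or 3 or without knockout array 1, 2 or 3, with adjusted p from 0.053 to 0.063 in limma. It was also lost without both wild-type arrays 3 and 4 (difference 1.35, limma adjusted p = 0.077) and with the mean of the muscle markers as a covariate (difference 1.23, limma adjusted p = 0.059).

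Values of markers of other skin cells are given beside Irf7. Of 6 Langerhans and dendritic cell markers 1 was called higher, the class II antigen presentation gene H2-Ab1, and their summed intensity was 59.1 to 73.3 in wild type and 80.3 to 183 in knockout. The class II genes differed by 1.38 (H2-Ab1), 1.54 (H2-Aa) and 0.92 (Cd74), of which the latter pair did not pass. Cd207, the langerin gene that marks Langerhans cells, differed by -0.04, Itgax by 0.0077 and Flt3 by -0.16. No marker of that list lay below the 25th percentile on all arrays, but Cd207 and Itgax were dim. The mean percentile of Cd207 was 21.5 in wild type and 22.0 in knockout, and that of Itgax 21.2 and 22.3. At such levels a lack of change is measured poorly. Plasmacytoid dendritic cells, the main producers of type I interferon, are known to hold much Irf7. Of 5 of their markers the homing receptor Ccr9 was called lower and none higher, and Ccr9 lay below the 25th percentile on all arrays. That list's sum was 86.0 to 164 in wild type (91.7 at most without array 4) and 75.5 to 80.7 in knockout. It includes Bst2, itself a member, and Cox6a2. Cox6a2 was at 6.63 on wild-type array 4, where muscle markers were high, and at 4.91 to 5.11 on the other wild-type arrays. Siglech differed by -0.13, Pacsin1 by -0.22 and Cox6a2 by -0.60, and none of these passed. The part of either cell type in the Irf7 result was not tested.

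The partners Irf9 and Stat2, of the complex that binds the ISRE, lay within the spread of the arrays. Irf9 was at 4.94, 4.62, 4.53 and 5.05 on wild-type arrays 1 to 4 and at 4.91, 5.11, 4.96 and 4.68 on knockout arrays 1 to 4. The groups overlapped, and the difference was 0.13 (95% interval -0.18 to 0.45, limma adjusted p = 0.59). Stat2 was at 4.62, 4.60, 4.27 and 4.76 in wild type and at 4.58, 4.49, 4.37 and 4.39 in knockout. Its groups overlapped too, with a difference of -0.10 (95% interval -0.37 to 0.16, limma adjusted p = 0.62).

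The sensors of viral nucleic acids gave no call. Ddx58, which encodes the RNA sensor RIG-I, was at 4.44, 4.27, 4.02 and 4.20 in wild type and at 4.15, 4.69, 4.42 and 4.97 in knockout. Its groups overlapped, with the highest value on knockout array 4, and the difference was 0.32 (SE 0.17, limma adjusted p = 0.27). Dhx58 encodes LGP2, a helicase that modulates RIG-I and MDA5. It was at 3.29, 3.52, 3.20 and 3.51 in wild type and at 3.34, 2.99, 3.02 and 2.39 in knockout. Knockout array 1 lay within the wild-type range and array 4 lay lowest, and the difference was -0.45 (SE 0.18, limma adjusted p = 0.16). Ifih1, the gene of MDA5, differed by -0.08, and Zbp1, a sensor of Z-form nucleic acid, by 0.03.

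**Figure D2:**
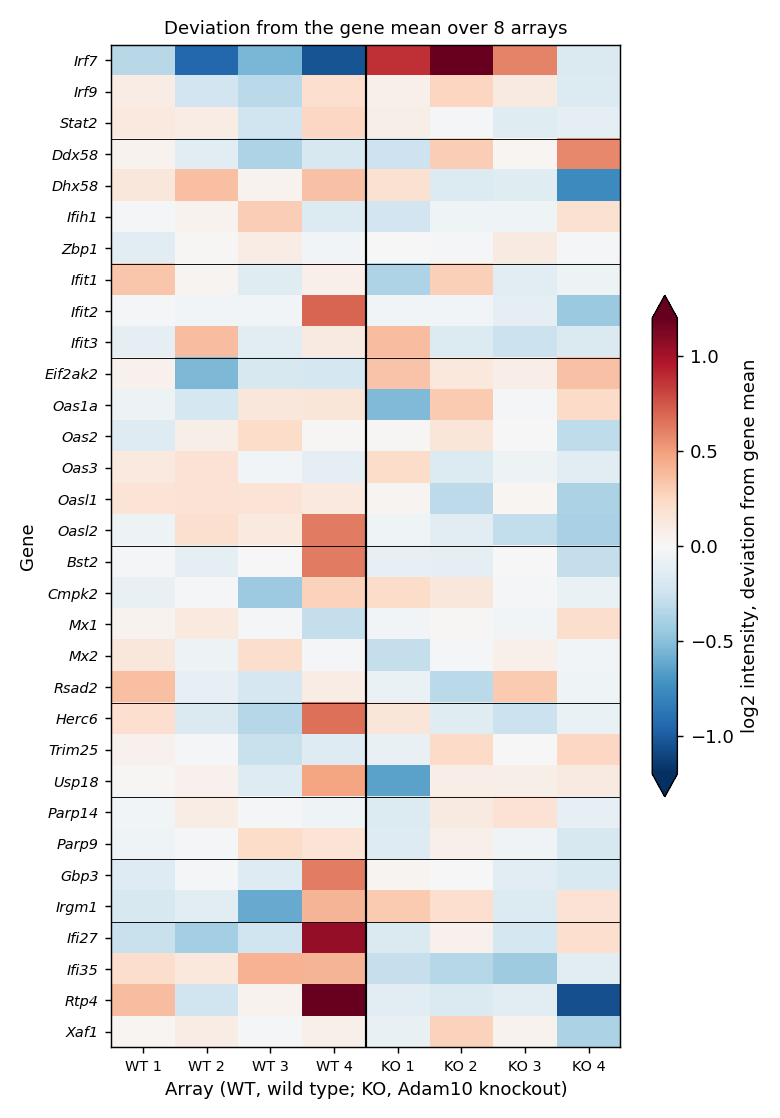
Deviation of each interferon-stimulated gene from its own mean over the 8 arrays (log2 intensity, colour scale cut at 1.2 either way), with genes as rows in groups of one role and arrays as columns. Irf7 is high on knockout arrays 1 to 3, several genes including Rtp4 and Ifi27 are high on wild-type array 4, and 10 of the 32 rows have a higher mean in the knockout.

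The antiviral effectors that stop viral RNA from being translated or copied likewise gave no call. The IFIT proteins bind foreign RNA ends. Ifit1 was at 2.75, 2.44, 2.27 and 2.48 in wild type and at 2.04, 2.70, 2.28 and 2.36 in knockout, a difference of -0.14 (95% interval -0.48 to 0.19), with values below the 25th percentile of every array. Ifit2 was at 2.64, 2.62, 2.62 and 3.36 in wild type and at 2.62, 2.62, 2.54 and 2.21 in knockout. Wild-type array 4 stood alone at the top and knockout array 4 at the bottom, and the difference was -0.31 (limma adjusted p = 0.30). Ifit3 differed by -0.11.

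Eif2ak2 encodes PKR, a kinase that halts translation when it meets double-stranded RNA. It was at 4.30, 3.72, 4.06 and 4.04 on wild-type arrays 1 to 4 and at 4.60, 4.38, 4.33 and 4.60 on knockout arrays 1 to 4. All 4 knockout values lay above all 4 wild-type values, though knockout array 3 was only just above wild-type array 1. The difference of 0.45 (SE 0.13) missed the threshold (limma adjusted p = 0.064) and passed it under median centring, with array weights and without wild-type array 1. The enzymes and relatives of the OAS family, some of which make the signal that activates RNase L, lay at or below 0, but quantile normalization, cyclic loess and median centring each turned Oas1a, Oas2 and Oas3 above it. Oas1a differed by -0.0017, Oas2 and Oas3 by -0.07, Oasl1 by -0.31 (limma adjusted p = 0.12) and Oasl2 by -0.43 (limma adjusted p = 0.09995).

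The membrane and GTPase effectors spread around 0. Bst2, the tetherin that holds budding virus at the cell surface, was at 4.60, 4.50, 4.61 and 5.24 in wild type and at 4.52, 4.50, 4.62 and 4.33 in knockout. Wild-type array 4 was the one high value, and the difference was -0.24 (SE 0.16, limma adjusted p = 0.36). Mx1, a GTPase that blocks influenza virus and is defective in many laboratory strains, was at 2.10, 2.18, 2.04 and 1.77 in wild type and at 2.02, 2.07, 2.02 and 2.27 in knockout. These values overlapped and lay below the 25th percentile of every array, with a difference of 0.08. Mx2 differed by -0.14. Rsad2, the radical enzyme viperin, differed by -0.07, and Cmpk2, a mitochondrial nucleotide kinase encoded next to it, by 0.13.

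ISG15 is a ubiquitin-like protein attached to other proteins, and 3 genes of its pathway were measured. Trim25, a ubiquitin ligase that activates RIG-I, was at 5.35, 5.28, 5.03 and 5.14 in wild type and at 5.20, 5.53, 5.30 and 5.55 in knockout. The groups overlapped, with knockout arrays 2 and 4 highest, and the difference was 0.20 (SE 0.12, limma adjusted p = 0.32). Usp18, the protease that removes ISG15, differed by -0.19, and Herc6, its ligase in mice, by -0.17. Of the ADP-ribosyltransferases, Parp9 was at 3.82, 3.86, 4.08 and 4.03 in wild type and at 3.71, 3.93, 3.83 and 3.68 in knockout. It differed by -0.16 (limma adjusted p = 0.36) with overlapping groups, and its partner Parp14 by 0.01.

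The GTPases induced above all by interferon gamma were represented by Irgm1 and Gbp3, which act on vacuoles that hold microbes. Irgm1 was at 2.66, 2.72, 2.25 and 3.26 in wild type and at 3.17, 3.05, 2.69 and 3.02 in knockout. Wild-type array 4 was the highest of all 8, the groups overlapped, and the difference was 0.26 (SE 0.19, limma adjusted p = 0.43). Gbp3 differed by -0.14.

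Ifi35 was the one member that was lower in the knockout by the test. It was at 5.21, 5.13, 5.41 and 5.41 on wild-type arrays 1 to 4 and at 4.72, 4.65, 4.57 and 4.87 on knockout arrays 1 to 4. The groups were clearly apart, since the lowest wild-type value exceeded the highest knockout value by more than either group's SD. The wild-type mean was 5.29 ± 0.14 and the knockout mean 4.70 ± 0.13 (SD, n = 4 each), and the difference came to -0.59 (SE 0.11, limma adjusted p = 0.011). The call held without each array in turn, with limma adjusted p from 0.011 to 0.045. Without both wild-type arrays 3 and 4 the difference was -0.46 and the call was lost (limma adjusted p = 0.069). Macrophage markers fell over the same arrays, 5 of 10 by the test, among them Csf1r, the receptor for their growth factor, and the complement chains C1qa, C1qb and C1qc. Their summed intensity was 386 to 675 in wild type (408 at most without array 4) and 195 to 263 in knockout, none of the 10 lay below the 25th percentile on all arrays, and their part in the Ifi35 result was not tested.

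The remaining induced proteins did not pass. Rtp4, a chaperone of membrane receptors, was at 3.33, 2.72, 3.01 and 4.26 in wild type and at 2.84, 2.79, 2.83 and 1.91 in knockout. Wild-type array 4 was far the highest and knockout array 4 far the lowest, while the other 6 arrays overlapped. The difference of -0.74 (95% interval -1.45 to -0.03) had a limma adjusted p of 0.18. Ifi27, a small mitochondrial and nuclear envelope protein, differed by -0.07 and was also highest on wild-type array 4, at 6.79 against 5.32 to 5.93 on the other 7. Xaf1, a protein that promotes apoptosis, differed by -0.07.

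Single arrays of both genotypes held many of the members' extremes. Wild-type array 4, where 5 fat cell markers summed to 1476 intensity units against 58.9 to 102 on the other wild-type arrays, held the highest value of 11 of the 32 members, and knockout array 4 the lowest value of 10. Such extremes were not counted over all genes, so these counts are not read as particular to the members. The members' median deviation from their own means was 0.13 on wild-type array 4, -0.11 on knockout array 4 and from -0.04 to 0.02 on each of the remaining 6. Without wild-type array 4 the counts were again 1 higher and 1 lower, Irf7 and Ifi35.

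**Figure D3:**
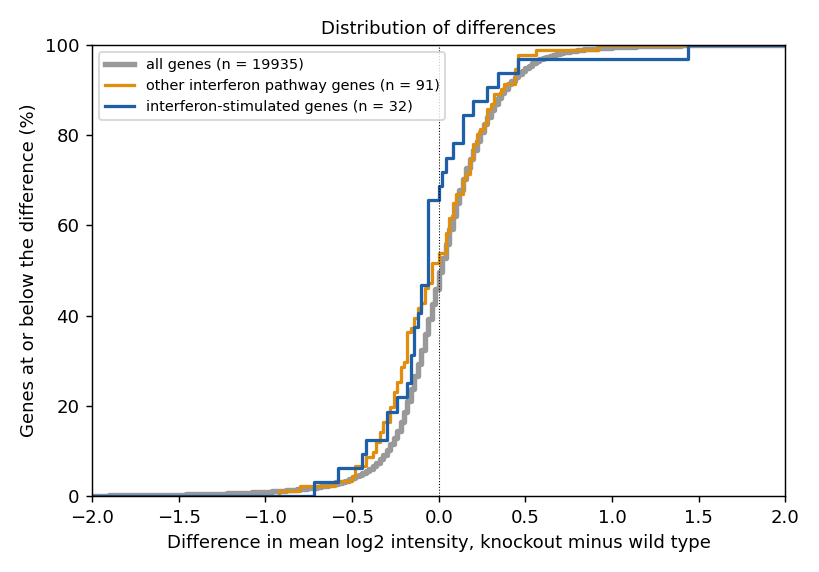
Share of genes (vertical axis, %) at or below each difference in mean log2 intensity, knockout minus wild type (horizontal axis), for all 19935 genes, the 32 interferon-stimulated genes and 91 other genes of the interferon pathway. The medians are 0.0027, -0.08 and -0.04, at a difference of 0 the members' curve stands at 68.8% and that of all genes at 49.6%, and the far right step of the members is Irf7 at 1.43. The sets are not matched for brightness.

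The rest of the interferon pathway was read from 91 measured genes of a list of 110. Of these 6 were called higher and 2 lower, where 6.41% and 2.34% of all genes were. Interferon genes themselves gave no call among 12 measured. Ifnb1, the interferon beta gene, was between 1.96 and 2.26 in wild type and between 1.67 and 2.16 in knockout, a difference of -0.18. Ifnk, the interferon of keratinocytes, differed by 0.04 and Ifng, made by T and NK cells, by -0.12. These 3 lay below the 25th percentile of every array, where a low level of RNA is measured poorly.

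All 6 receptor chains lay above 0, or 5 of 6 after quantile normalization and cyclic loess, and 1 passed. Over all genes 50.4% lay above 0 and 6.41% were called higher. The chains were bright, at a median percentile of 77.1 in wild type. The 10080 genes above the array median on at least 4 arrays had a median difference of 0.11. Ifnar1, the type I receptor chain, was at 6.07, 6.08, 6.05 and 6.20 in wild type and at 6.50, 6.65, 6.45 and 6.29 in knockout. The groups did not overlap, and the difference was 0.38 (SE 0.10, limma adjusted p = 0.045). That call lay close to the threshold and was lost without wild-type array 1, 2 or 3 or knockout array 1, 2 or 3, with limma adjusted p up to 0.14. Quantile normalization (0.27), cyclic loess (0.26), the muscle covariate (0.42) and leaving out wild-type arrays 3 and 4 (0.40) ended it as well. Its partner Ifnar2 differed by 0.30 (limma adjusted p = 0.18), and the interferon gamma receptor chains Ifngr1 and Ifngr2 by 0.42 and 0.03.

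Jak2, a kinase of the interferon gamma receptor and of many cytokine receptors, was at 5.93, 5.59, 5.88 and 6.002 in wild type and at 6.39, 6.57, 6.28 and 6.34 in knockout. Every knockout value lay above every wild-type value, and the difference was 0.54 (SE 0.12, limma adjusted p = 0.019). Irf5, a factor active in myeloid cells that drives inflammatory cytokines, was at 4.44, 4.60, 4.77 and 4.60 in wild type and at 4.99, 4.97, 5.21 and 5.03 in knockout. Its groups were apart as well, by 0.45 (SE 0.10, limma adjusted p = 0.026). All 10 macrophage markers lay below 0 over the same arrays, with a median of -0.92, and their part in the Irf5 result was not tested. Irf3, which starts interferon transcription, differed by 0.34 with groups apart and missed the threshold (limma adjusted p = 0.063), and Irf1, a factor induced by interferon gamma, differed by -0.04. The Jak2 call ended when leaving out wild-type array 3 or knockout array 1 or 2, and that of Irf5 when leaving out wild-type array 2 or knockout array 1, 2 or 3, with limma adjusted p up to 0.072 and 0.074. Cyclic loess also ended the Jak2 call (difference 0.44, limma adjusted p = 0.052).

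Socs3, an inhibitor of cytokine receptor signalling that many cytokines induce, was at 5.45, 5.50, 5.51 and 5.50 in wild type and at 6.02, 5.77, 5.96 and 5.99 in knockout. The wild-type arrays were tightly grouped below all knockouts, and the difference was 0.44 (SE 0.09, limma adjusted p = 0.016). Leaving out knockout array 1 or 3 ended that call, with limma adjusted p up to 0.053, as did leaving out wild-type arrays 3 and 4 (difference 0.46). The gene has 2 probe sets, and their mean gave a difference of 0.23 that did not pass (limma adjusted p = 0.17). The other inhibitors measured, among them Socs1, which interferons induce, did not pass.

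**Figure D4:**
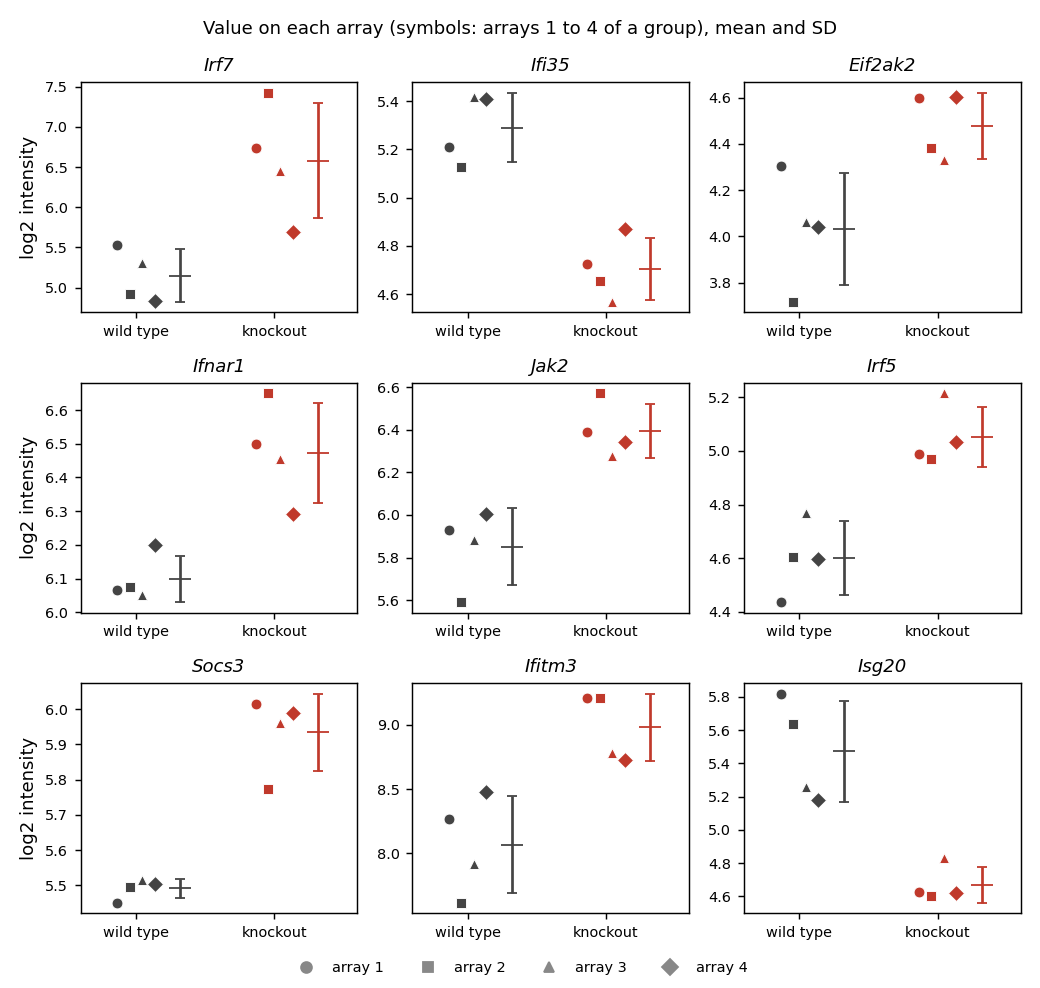
Log2 intensity on each of the 4 wild-type and 4 knockout arrays for Irf7, Ifi35, Eif2ak2 and 6 other genes of the pathway, with the group mean and SD beside the points. In all 9 panels the groups do not overlap, by the narrowest distance for Eif2ak2, and each panel has its own vertical scale that does not begin at 0.

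Of 35 further induced genes, 2 were called higher and 2 lower, where 6.41% and 2.34% of all genes were. Ifitm3, which keeps viruses from fusing with endosomes, was at 8.27, 7.62, 7.92 and 8.47 in wild type and at 9.21, 9.21, 8.78 and 8.73 in knockout. It rose 1.88-fold with groups apart (difference 0.91, SE 0.19, limma adjusted p = 0.019), while its neighbours in the family Ifitm1 and Ifitm2 differed by -0.0088 and 0.17 and did not pass. Whether the 3 differ from each other was not tested. Leaving out wild-type array 3 or knockout array 1 or 2 ended the Ifitm3 call, with limma adjusted p up to 0.073. Tor3a, an ATPase of the endoplasmic reticulum, rose by 0.42 (SE 0.09, limma adjusted p = 0.024) and missed the threshold once wild-type array 3 or knockout array 1, 2 or 3 was left out. Quantile normalization (0.34), cyclic loess (0.33), the muscle covariate (0.33) and leaving out wild-type arrays 3 and 4 (0.34) had the same effect.

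Isg20, an exonuclease that degrades viral RNA, was at 5.82, 5.63, 5.26 and 5.18 in wild type and at 4.63, 4.60, 4.83 and 4.62 in knockout. Its groups were apart by -0.80 (SE 0.15, limma adjusted p = 0.010), and the call held without each array in turn. Ifi30, a lysosomal reductase that prepares antigens and is abundant in myeloid cells, fell by 0.37 on the log2 scale (SE 0.09, limma adjusted p = 0.034). Leaving out wild-type array 2 or 3 or any 1 knockout array ended that call, as did median centring (-0.27), the Y chromosome covariate (-0.37) and leaving out wild-type arrays 3 and 4 (-0.37). The part of the macrophage markers in the Ifi30 result was not tested.

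Antigen presentation genes that interferons induce lay mostly below 0, 9 of 10 with a median of -0.26, where 49.6% of all genes lay at or below 0, and likewise 9 of 10 under the other scalings run. None of the 10 passed in limma, and 3 were lower at an unadjusted p under 0.05, where 8.80% of all genes were. They include the peptide transporter genes Tap1 (-0.18) and Tap2 (-0.21) and the immunoproteasome subunits Psmb8 (-0.36) and Psmb9 (-0.44). Wild-type array 4, which stood apart in muscle and fat markers, held the highest value of 25 of the 91 pathway genes, a share not counted over all genes. Among these were Tapbp, Psmb10, Psme2, B2m and Nlrc5, but not Tap1, Tap2, Psmb8, Psmb9 or Psme1. The chemokines Cxcl9, Cxcl10 and Cxcl11, which interferon gamma induces and which draw T cells, differed by 0.19, 0.05 and -0.05. None of the 7 T and NK cell markers passed, and their summed intensities were 64.3 to 74.4 in wild type and 61.6 to 71.9 in knockout. Cxcl11 and, of these markers, Cd4 and Klrb1c lay below the 25th percentile of every array, where a low level of RNA is measured poorly.

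**Figure D5:**
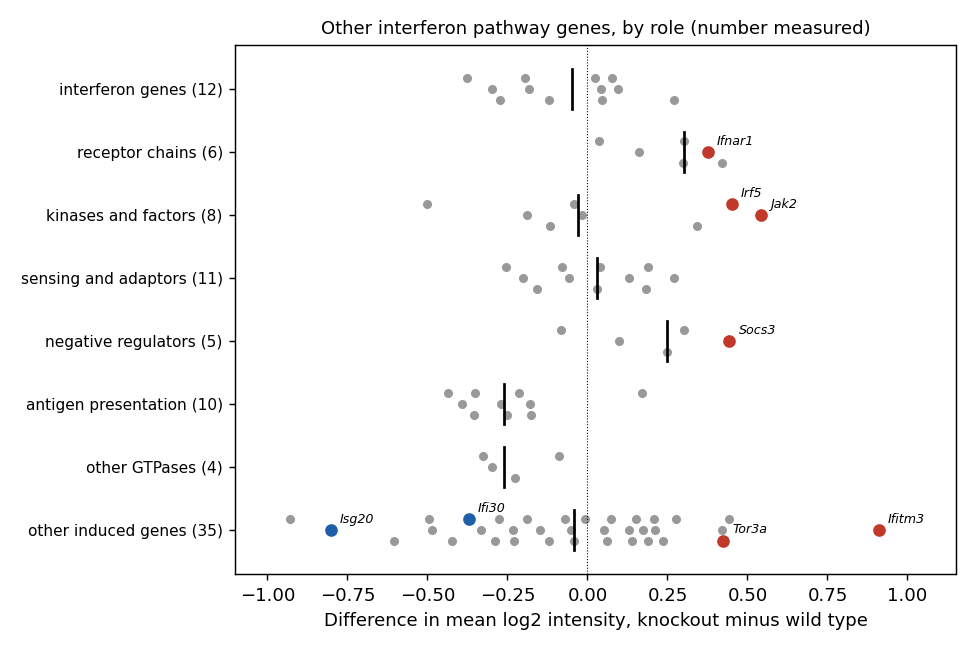
Difference in mean log2 intensity, knockout minus wild type, for 91 other genes of the interferon pathway in rows by role, with black bars at the median of each row. The 6 genes called higher (red) and 2 called lower (blue) are named. All 6 receptor chains lie above 0 (5 of 6 after quantile normalization or cyclic loess), and 9 of 10 antigen presentation genes lie below it. Over all genes 50.4% lie above 0.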

How the data were processed

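Each array was deposited as a column of probe set intensities, for which the submitters' processing notes name RMA, a method that corrects background, normalizes arrays and summarises probes. No version, setting or build is given in the sources used here. The range of the deposited values shows a linear scale, so log2 of them was taken with no pseudocount. Of 35519 probe sets 21780 carried exactly 1 symbol, 1605 several and 12134 none. Of the 21780 with 1 symbol, 21689 had an Entrez identifier in RefSeq GRCm38.p6. Where a gene had several (998 genes), its brightest probe set by mean was kept. Each member had 1 probe set, whose value averages probes along a transcript. The fit used limma 3.58.1 in R 4.3.3 with genotype as the only term and was tested on simulated data. Arrays give no depth, and their number limits the precision. The members, the lists and the alternatives were chosen with earlier results of these data known. Values on every array are given for members that passed, the smallest p of each role, the 3 highest and 3 lowest differences, and Irf7, Irf9, Stat2, Ifit1 and Mx1. Of the other pathway genes those that passed and 9 fixed ones are named. Socs1, Oas and Ifitm relatives, Tap, Psmb and Cxcl genes were named after their values were seen. Tmem173 and Mb21d1 had no probe set under those symbols and were not analysed here. Sums over markers are of linear intensities. Marker lists cover keratinocytes, macrophages, T and NK cells, plasmacytoid and other dendritic cells, neutrophils (0 of 6 passed), muscle (0 of 10), fat (0 of 5), fibroblasts (0 of 6), endothelium (0 of 5), melanocytes (2 of 5 higher) and the Y chromosome (0 of 3). Of the 8 keratinocyte markers 3 were higher. Promoters were searched with Python 3.11.15.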

Additional observations from a re-analysis of the deposited data

Results flagged for a closer look

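In 49 genes, 98 groups of 4 arrays were screened for 1 value far from the other 3 (Dixon's gap test at the 95% level), which chance gives in about 1 of 20 groups, and 10 were found, 7 of them in the 64 groups of the members. Wild-type array 4 was high for Ifit2 (3.36, others 2.62 to 2.64), Ifi27 (6.79, others 5.32 to 5.50) and Bst2 (5.24, others 4.50 to 4.61). Knockout array 1 was high for Ifit3 (2.36, others 1.74 to 1.82) and low for Usp18 (2.45, others 3.16 to 3.20). Knockout array 4 was low for Rtp4 (1.91, others 2.79 to 2.84) and for Irf3 (5.78, others 6.01 to 6.03). Knockout array 3 was high for Zbp1 (3.14, others 3.01 to 3.03) and for Isg20 (4.83, others 4.60 to 4.63). Wild-type array 3 was low for Adam10 (7.06, others 7.33 to 7.39).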

How the results depend on the processing

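Counts are given against the values of the report, 1744 genes of all, 1 member higher and 1 lower, and 6 and 2 other pathway genes. Leaving out 1 array gave 587 to 1997 genes of all, 0 to 2 members higher and 1 lower, a members' median of -0.11 to -0.06, and 0 to 7 pathway genes higher and 1 to 4 lower. No member was higher without wild-type array 2 or 3 or knockout array 1, 2 or 3, which gave 992, 750, 911, 587 and 809 genes of all and 4, 2, 0, 1 and 2 pathway genes higher. Without wild-type arrays 3 and 4 together 925 genes passed, 0 members in either direction, and 3 pathway genes higher and 1 lower. Median centring gave 2739 genes, 2 members higher (Irf7 and Eif2ak2), and 10 pathway genes higher and 1 lower. Array weights gave 3621 genes, the same 2 members higher, and 7 pathway genes lower. Cyclic loess gave 3 pathway genes higher, log2 of the value plus 16 gave 4 lower and the Y chromosome covariate 1 lower. The muscle covariate left 0 members higher. At a threshold of 0.01, 478 genes passed, with 0 members and 0 pathway genes in either direction. At 0.10, 2958 passed, with 2 members higher, 2 lower and 7 pathway genes lower. Adam10 passed after quantile normalization (-0.46), cyclic loess (-0.49), the filter on dim genes (-0.36), log2 of the value plus 16 (-0.32) and the trended and robust prior (-0.36), and at 0.10 (-0.36), and leaving out 1 array gave -0.43 to -0.32. The cause of these changes was not tested. Of 648 values of single members 577 kept their direction and side of the threshold, 10 lost a call, 5 gained one and 56 of members that did not pass changed sign, and 0 called members changed sign. The filter on dim genes left 8 members and 50 pathway genes. No paired analysis was possible because the labels give the groups no shared replicate numbers. Signal near background limits the dim members.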
